A study of Mus musculus with 4 samples.

Results

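CG methylation was described at the Rb1 locus, a stretch of 330 kb on mouse chromosome 14 (mm9, chr14:73500000-73830000) that also holds Rcbtb2 and Itm2b. The members are the CG sites of this stretch with at least 5 reads in every library. There were 557 such sites among the 3408 CG sites that the deposited tables list here (16.3%). Over chromosomes 1 to 19, X and Y, 2638319 of 21342492 listed CG sites (12.4%) met the same minimum.

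The libraries, 2 of swim-up sperm and 2 of histone replacement-completed sperm (HRCS), were made by targeted bisulfite sequencing (TGBS). Probes capture selected regions, bisulfite changes cytosines that carry no methyl group, and a CG site's methylation level is the percentage of its reads that stayed methylated. All sperm came from untreated wild-type young adult males, and all 4 libraries carry the strain label C57BL/6. The paper prepared HRCS from sperm of the cauda epididymis and vas deferens, and it describes swim-up sperm from culture of the cauda epididymis. The deposited names of the swim-up libraries also hold a code, CD, which the labels do not explain, and the names of the HRCS libraries do not. Swim-up sperm were taken from the upper part of the medium into which the tissue released its sperm. HRCS are dense sperm heads, freed of tails by mild sonication and pelleted through Percoll, and the swim-up fraction still holds sperm that have not finished histone replacement. The labels do not say which animals gave which library, so p-values of tests over libraries measure the spread between libraries only. Fisher's exact test, run on pooled calls, does not measure that spread. No RNA was measured, and the labelled cell type was not checked against marker genes.

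Rb1 encodes the retinoblastoma protein, which binds E2F transcription factors and holds cells back from entering S phase. Rcbtb2 encodes a protein with RCC1-like repeats and a BTB domain. Itm2b encodes a type II transmembrane protein that is cleaved by furin and is mutated in familial British and Danish dementia. In sperm most CG sites are highly methylated, whereas CG-rich gene starts usually lack methylation. The study's H3 profile of this locus showed an H3 site at the Rb1 start in both total sperm and HRCS, and H3 sites at the Rcbtb2 and Itm2b starts in total sperm alone. Total sperm have no methylation library here, so swim-up sperm are compared with HRCS instead. The paper reported little difference in methylation between HRCS and swim-up sperm over the captured regions. It found no significant difference in level between the H3 sites of total sperm and those of HRCS. The question for the methylation data is whether the Rb1 start differs from the other 2 starts, and whether swim-up sperm differ from HRCS at any of the 3 genes.

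The members covered the locus unevenly, and the locus was read less deeply than the series. The libraries held between 9889 and 12345 calls at the members, a call being 1 read counted at 1 site. The median depth per member was 17 and 17 reads in the swim-up libraries, against 20 and 18 in the HRCS ones, against 21, 19, 25 and 22 reads over the series. Between 91.9% and 94.0% of the calls of the locus were listed on the minus strand. A dense stretch is a run of 200 bp spans with at least 10 listed CG sites each. The locus held 15 dense stretches, of which 5 had at least 5 members and 9 had none. Of the members, 287 (51.5%) lay inside dense stretches and 270 outside.

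The sequences just upstream of 2 of the starts show how differently CG-rich they are. RefSeq promoter sequences (GRCm38.p6) were placed in the mm9 tables by the spacing of their CG sites, which matched 1 place each among all listed sites. The 250 bases before the first transcribed base are printed 5′ to 3′ on the strand of the gene, with every CG in capitals. The Rcbtb2 stretch is chr14:73542342-73542591 on the plus strand, and that of Itm2b is chr14:73785097-73785346 on the minus strand.
Rcbtb2: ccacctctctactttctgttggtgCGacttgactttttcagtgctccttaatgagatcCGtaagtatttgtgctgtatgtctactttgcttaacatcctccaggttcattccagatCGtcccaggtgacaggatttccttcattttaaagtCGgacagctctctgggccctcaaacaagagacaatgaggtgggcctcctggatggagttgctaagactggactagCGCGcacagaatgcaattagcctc
Itm2b: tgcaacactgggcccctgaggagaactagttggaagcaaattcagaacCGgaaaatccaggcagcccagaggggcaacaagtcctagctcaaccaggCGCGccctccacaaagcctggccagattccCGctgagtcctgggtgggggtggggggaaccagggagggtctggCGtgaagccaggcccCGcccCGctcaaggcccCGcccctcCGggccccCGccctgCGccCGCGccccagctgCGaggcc

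The Rcbtb2 bases hold 6 CG and are 47.6% G or C, and the Itm2b bases hold 14 CG and are 68.8% G or C. Among 32851 promoter entries of the same length, 50.4% held at least 6 CG and 29.4% held at least 14. Both stretches were close to unmethylated. At Itm2b, 6 of 807 calls at the 14 CG sites were methylated in the 4 libraries together, and the 11 sites that were members had levels from 0% to 3.36%. At Rcbtb2, 1 of 159 calls at the 6 CG sites was methylated, and only the 2 CG sites nearest to the start were members. The first transcribed base of Rcbtb2 (73542592) lies near the left end of its dense stretch, so most of that stretch lies within the transcribed part. That of Itm2b (73785096) lies inside its dense stretch. The promoter table has no entry for Rb1.

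At their members, the dense stretches at all 3 gene starts were nearly free of methylation in every library. At the Rcbtb2 start (chr14:73542568-73543622, 1055 bp), 72 of 101 CG sites were members. Their mean level was 1.32% and 1.29% in the swim-up libraries, against 1.30% and 1.32% in the HRCS ones. The 4 libraries lay within a very narrow range, and the fractions overlapped. Swim-up sperm averaged 1.30% ± 0.0249 (SD, n = 2) and HRCS averaged 1.31% ± 0.0107 (SD, n = 2), and the difference of 0.00822 points was not larger than the spread (two-sided exact permutation test, p = 1). With 2 libraries per fraction this test cannot give a p below 0.333. No methylated read was seen in any library at 39 of the 72 sites, and 4 sites exceeded 5%. The highest of them (position 73542973) was at 0% and 30% in swim-up sperm, against 0% and 25% in HRCS, on 5 to 10 reads per library. Replicates of the same fraction disagreed there, and the mean of 13.75% rests on few reads.

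At the Rb1 start (chr14:73724691-73726485, 1795 bp), 112 of 204 CG sites were members. Their mean level was 2.91% and 0.979% in the swim-up libraries, against 1.70% and 1.54% in the HRCS ones. Both HRCS libraries lay between the swim-up libraries. Swim-up sperm averaged 1.95% ± 1.37 (SD, n = 2) and HRCS averaged 1.62% ± 0.112 (SD, n = 2), a difference of -0.327 points (two-sided exact permutation test, p = 1). Without swim-up replicate 1 the difference was 0.640 points, and without swim-up replicate 2 it was -1.29 points, so its direction rests on 1 library. This was the shallowest of the 3 starts, with a median of 8 to 14 reads per site against 15.5 to 21 at Rcbtb2 and 19 to 28 at Itm2b. Between positions 73724884 and 73725386 its only member was at position 73725164, so the level of most of that part is unknown. No methylated read was seen at 56 of the 112 sites, and 12 sites exceeded 5%. The highest site (position 73725404) held 3 methylated reads of 5 in swim-up replicate 1 and none in the other libraries.

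At the Itm2b start (chr14:73784510-73785325, 816 bp), 67 of 70 CG sites were members. Their mean level was 1.18% and 0.575% in the swim-up libraries, against 1.75% and 0.617% in the HRCS ones. In each fraction replicate 1 was the higher library, and the fractions overlapped. Swim-up sperm averaged 0.878% ± 0.428 (SD, n = 2) and HRCS averaged 1.18% ± 0.799 (SD, n = 2), a difference of 0.304 points (two-sided exact permutation test, p = 0.667). Without swim-up replicate 2 it was 0.000888 points, without swim-up replicate 1 it was 0.607 and without HRCS replicate 2 it was 0.868. Without HRCS replicate 1 it turned to -0.261 points. No methylated read was seen at 32 of the 67 sites, and 3 sites exceeded 5%. The highest site (position 73784799) was at 6.90% and 0% in swim-up sperm, against 11.8% and 10% in HRCS, on 15 to 34 reads.

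**Figure D1:**
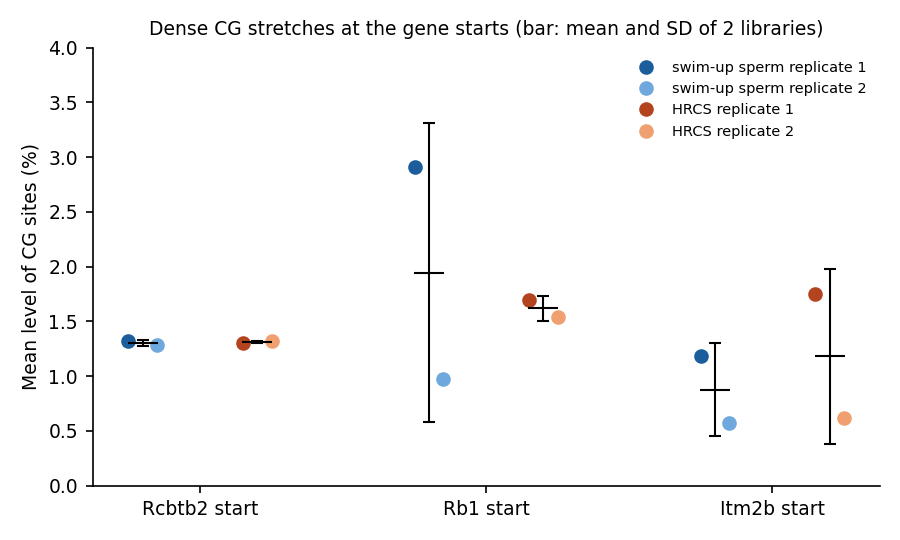
Mean methylation level (%) of the member CG sites in the dense stretch at each gene start. Points are the 4 libraries, and the black marks with bars are the mean and SD of the 2 libraries of a fraction. All 12 points lie between 0.575% and 2.91%, and the fractions overlap at each start.

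The Rb1 start was set against the other starts within each library. Its level exceeded the mean of the Rcbtb2 and Itm2b starts by 1.66 and 0.0484 points in the swim-up libraries, against 0.173 and 0.572 points in the HRCS ones. The excess was positive in all 4 libraries, and its spread within swim-up sperm covered both HRCS values. The Rb1 start was not above each single start in every library. It was below the Rcbtb2 start in swim-up replicate 2 (0.979% against 1.29%). In HRCS replicate 1 it was below the Itm2b start (1.70% against 1.75%). In all other comparisons with a single start it was higher. The excess differed by -0.483 points in HRCS (0.856 ± 1.14 against 0.373 ± 0.283, SD, n = 2), which was not larger than the spread (two-sided exact permutation test, p = 1). Without swim-up replicate 1 this difference was 0.324 points, and without swim-up replicate 2 it was -1.29 points. Over the series, 34979 dense stretches had at least 5 members, and their median level was 1.49%. The Rb1 start was above 57.2% of them, the Rcbtb2 start above 41.1% and the Itm2b start above 19.7%. All 3 levels were thus common among dense stretches, of which 78.0% were at or below 25%.

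**Figure D2:**
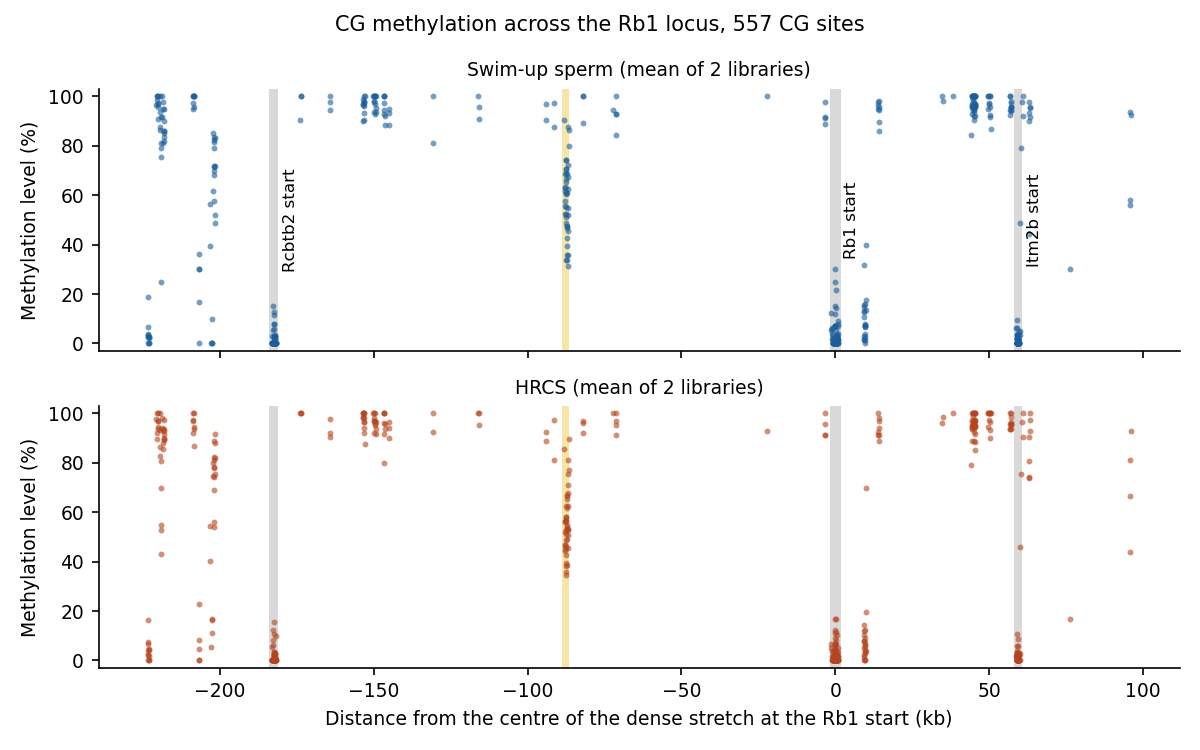
Methylation level (%) of the 557 member CG sites against their distance (kb) from the centre of the dense stretch at the Rb1 start, as the mean of the 2 swim-up libraries (top) and of the 2 HRCS libraries (bottom). Grey bands mark the dense stretches at the 3 gene starts, where the sites lie near 0%, and the yellow band marks a dense stretch at an intermediate level, with a mean of 60.7% in swim-up sperm and 48.6% in HRCS. Bands are drawn wider than the stretches for visibility.

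The nearest members over 50% lay at different distances from the low sites around the starts, and most of the gaps between held no member. On the left of the Rb1 start, the nearest member over 50% (position 73722369, 91.5%) lay 1749 bp before the first low site. On the right, the next members formed a group of 22 sites that is not dense (chr14:73734876-73735542), and all but its last site were at or below 50%. Its last site (position 73735542, 54.9%) was the nearest member over 50% on that side, 26 bp after the last low site, and it was at 40% and 40% in swim-up sperm, against 53.8% and 85.7% in HRCS. The mean level of the 22 sites was 9.94% and 11.5% in swim-up sperm, against 8.85% and 9.81% in HRCS. Both HRCS libraries lay below both swim-up libraries, by 1.39 points on average (two-sided exact permutation test, p = 0.333, at the limit of the design). How many such groups of the series show this order was not counted. No member lay between position 73726600 and these sites, so the levels of the bases between them are unknown. The run of members at or below 50% around the Rb1 start held 139 sites over 11399 bp, which includes these bases without members. Its part up to position 73726600 held 118 sites over 2483 bp.

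At Itm2b the low run held 73 sites over 1340 bp. A methylated site (position 73785826, 77.2%) lay 82 bp beyond its right end, while on the left the nearest one (position 73782839, 95.8%) was 1566 bp away. The low run at Rcbtb2 held 78 sites over 1425 bp. Its nearest methylated members lay 18457 bp to the left and 7802 bp to the right, so its borders were not resolved by the sites covered.

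Windows of 200 bp at the edges of the start stretches were low at both ends of all 3 stretches. They hold sites of the stretches themselves, so they are no separate measure of the flanks. The right edge window of the Rb1 start (chr14:73726401-73726600, 3 sites) was at 13.4% and 2.38% in swim-up sperm, against 0% and 2.22% in HRCS. Both HRCS libraries lay below both swim-up libraries, with a difference of -6.78 points, and swim-up replicate 1, the highest library, had 39 calls (edgeR's quasi-likelihood test, unadjusted p = 0.0780, adjusted p = 1). Of all windows of the series, 16.1% showed this order. The other 5 edge windows had mean levels over the 4 libraries from 0.490% to 2.93%, and the fractions overlapped in each.

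Outside the dense stretches, the spans of Rcbtb2 and Itm2b were highly methylated. The 47 such members of the Rcbtb2 span (about chr14:73540000-73585000) had mean levels of 85.8% and 86.6% in swim-up sperm, against 85.6% and 86.5% in HRCS. The 52 such members of the Itm2b span (about chr14:73760000-73786000) had mean levels of 86.3% and 85.8% in swim-up sperm, against 84.7% and 86.8% in HRCS. The fractions overlapped in both spans (two-sided exact permutation test, p = 0.667 and p = 1).

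Between the Rcbtb2 end and the Rb1 start, 49 members lie outside dense stretches. Their mean levels were 71.5% and 65.2% in swim-up sperm, against 73.1% and 69.1% in HRCS, which overlapped. These means mix unlike sites, and the median site was at 81.7%. The 17 sites between 25% and 75% all flank the intermediate stretch described below. The lowest site (position 73724650, 1.92%) lies beside the Rb1 start stretch. Over the 31 members outside dense stretches between the Rb1 start and the Itm2b end, the means were lower. They were 31.5% and 32.8% in swim-up sperm, against 30.5% and 31.4% in HRCS. The low group of 22 sites described above makes up most of these members. Over the 31 members both HRCS libraries lay below both swim-up libraries, by 1.22 points on average (two-sided exact permutation test, p = 0.333). Over the 270 members outside dense stretches, the levels were 69.3%, 70.6%, 69.8% and 70.4% in the same order of libraries, a difference of 0.0950 points (two-sided exact permutation test, p = 1). This value turned negative in 7 of 12 alternatives, which ranged from -1.47 to 1.95 points.

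Over all 557 members, the mean level was 39.3% and 39.4% in the swim-up libraries, against 38.8% and 39.0% in the HRCS ones. Both HRCS libraries lay below both swim-up libraries. Swim-up sperm averaged 39.4% ± 0.0506 (SD, n = 2) and HRCS averaged 38.9% ± 0.187 (SD, n = 2), a difference of -0.493 points that reached the smallest p possible (two-sided exact permutation test, p = 0.333). This is no call at a threshold of 0.05, which 2 libraries against 2 cannot pass. Levels from pooled calls gave -1.73 points and a minimum of 20 reads gave 0.617 points, and in both the fractions no longer separated (two-sided exact permutation test, p = 0.667). The difference was uneven along the locus. It was 0.0950 points over the 270 members outside dense stretches and -1.05 points over the 287 inside. At the Rcbtb2, Rb1 and Itm2b starts it was 0.00822, -0.327 and 0.304 points. The 2 other dense stretches described below had -2.84 points (15 members) and -12.1 points (20 members). The value over the locus thus leans on those 20 members, and no value without them was computed. At or below 25% lay 311 members (55.8%), 57 (10.2%) lay between 25% and 75%, and 189 (33.9%) lay above 75%. Over the series these shares were 61.7%, 6.34% and 31.9%.

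Beside the 3 starts, 2 dense stretches of the locus had at least 5 members, and neither was low. They were not singled out before their values were seen. One lies in the Itm2b span (chr14:73770787-73771083, 15 CG sites, all members) and was at 96.3% and 98.8% in swim-up sperm, against 95.1% and 94.3% in HRCS. It was methylated at every site, from 91.1% to 100%, and both HRCS libraries lay below both swim-up libraries by 2.84 points on average (two-sided exact permutation test, p = 0.333). Of the dense stretches of the series, 16.7% were above 75%, 13.6% showed the same order of libraries and 10.7% had a larger absolute difference. These shares are over all dense stretches, of which 78.0% were at or below 25%. No share among those above 75% was computed, so how common this difference is at a high level is unknown.

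The other one lies between the Rcbtb2 end and the Rb1 start (chr14:73637843-73638188, 346 bp, 20 CG sites, all members) and was methylated at an intermediate level. Rb1 is transcribed on the minus strand, so the stretch lies on the downstream side of its start. The end of Rb1 was not placed in mm9 here. All 20 sites had mean levels between 47.5% and 62.4%. In the swim-up libraries its level was 62.5% and 58.9%, and in HRCS it was 46.3% and 50.9%. Both HRCS libraries were lower than both swim-up libraries, an order that 13.6% of all dense stretches with at least 5 members and 14.6% of the intermediate ones also showed. Swim-up sperm averaged 60.7% ± 2.56 (SD, n = 2) and HRCS averaged 48.6% ± 3.26 (SD, n = 2), a difference of -12.1 points (two-sided exact permutation test, p = 0.333, at the limit of the design). Leaving out 1 library at a time gave differences between -14.4 and -9.80 points. With a minimum of 20 reads, 9 of the 20 sites were left, and the difference was -7.10 points.

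Only 5.35% of the 34979 dense stretches of the series (1872) lay between 25% and 75%. Among those 1872, 8.87% had a larger absolute difference between the fractions than this stretch, and 0.698% of all dense stretches did. The libraries did not keep 1 order along it. At 11 of its 20 sites both HRCS libraries were below both swim-up libraries, at 1 site they were above, and at the other 8 the fractions overlapped. Over all CG sites of the series these shares were 7.83% below and 7.98% above, and over those between 25% and 75% they were 15% (25067 of 167263) below and 17.7% above. Sites 73637976 to 73638004 had 10 to 25 reads per library, and neighbouring sites with nearly equal counts can share reads, so they are not separate measurements.

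**Figure D3:**
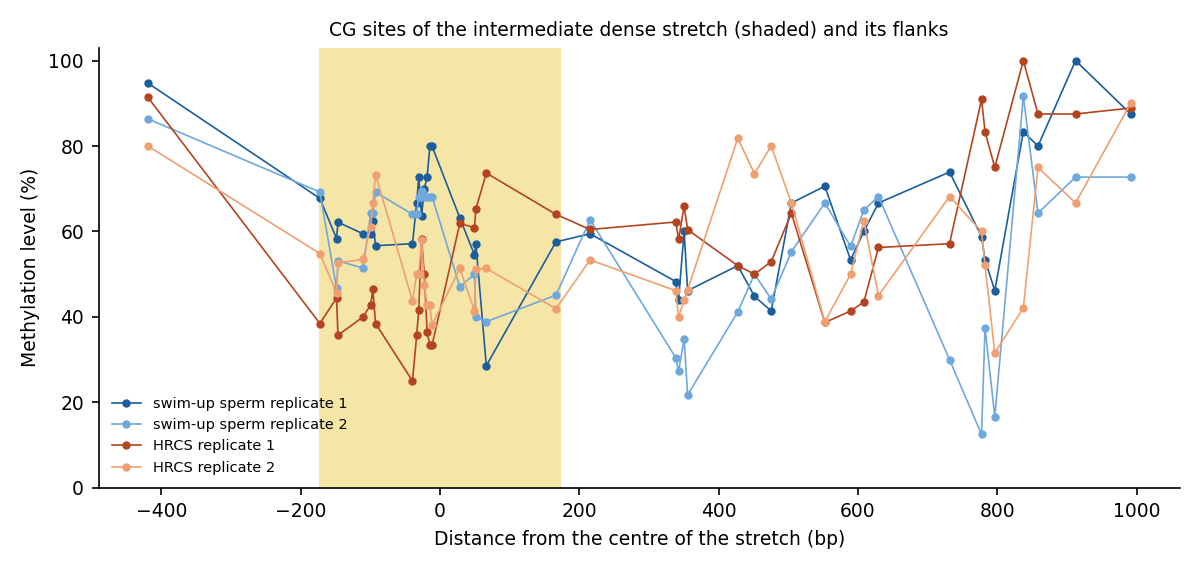
Methylation level (%) of single CG sites in each of the 4 libraries against the distance (bp) from the centre of the intermediate dense stretch, which is shaded. In the left part of the shaded stretch most HRCS points lie below the swim-up points, and to its right the order of the libraries changes from site to site.

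The windows along the same group of sites changed sign. The window chr14:73637801-73638000 (13 sites) was at 63.8% and 63.1% in swim-up sperm, against 41.0% and 53.8% in HRCS, on 266 to 353 calls per library. HRCS was lower by 16.0 points as an average over sites, and calls pooled over libraries gave -13.2 points. The window did not pass the test on summed calls (edgeR's quasi-likelihood test, unadjusted p = 0.0733, adjusted p = 1). Of the 68 windows of the locus, it alone passed Fisher's exact test on calls pooled over libraries (adjusted p = 0.00161), which 2397 of the 316993 windows of the series (0.756%) also passed. It is a test that leaves out the spread between replicates.

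The next window (chr14:73638001-73638200) overlapped between the fractions, with HRCS 4.84 points lower. The one after it (chr14:73638201-73638400) was at 51.6% and 35.4% in swim-up sperm, against 61.4% and 45.9% in HRCS, which was 10.2 points higher with overlapping libraries. Over the whole group of 42 sites (chr14:73637596-73639007), the levels were 62.9% and 54.4% in swim-up sperm, against 57.0% and 55.0% in HRCS. They overlapped, and the difference was -2.64 points.

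**Figure D4:**
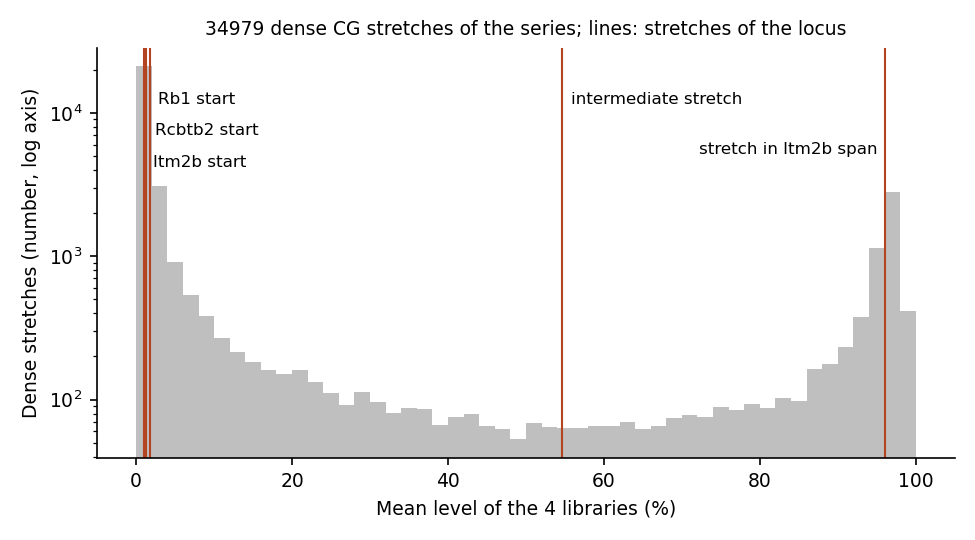
Number of dense CG stretches of the series (log axis) by mean level over the 4 libraries (%), for 34979 stretches with at least 5 members. Vertical lines mark the 5 such stretches of the Rb1 locus: the 3 gene starts in the low peak, 1 at 54.6% in the sparse middle and 1 at 96.1% in the high peak.

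No window of the locus passed the threshold for a difference between the fractions. Windows of 200 bp with at least 3 members were tested over the whole series by the quasi-likelihood test of edgeR, and p-values were adjusted after Benjamini and Hochberg with a threshold of 0.05. None of the 68 windows of the locus passed (smallest adjusted p = 1), where 12 of 316993 windows of the series (0.00379%) did. At an unadjusted p under 0.05, 2 windows were lower in HRCS (2.94%, against 2.39% of all windows) and 1 was higher (1.47%, against 2.24%). limma on logit levels called none of the 68 and none of the series (0.0%), and its unadjusted p was under 0.05 in 3 of the 68, against 5.68% of all windows. On pooled calls, Fisher's exact test called 1 of the 68, against 0.756%.

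Both HRCS libraries lay below both swim-up libraries in 9 windows (13.2%), against 16.1% of all windows. They lay above in 7 windows (10.3%), against 16.6%, and the fractions overlapped in the other 52. The fractions were over 10 points apart in 6 windows (8.82%), against 3.18% of the series. Windows of intermediate level (between 25% and 75%) made up 17.6% of the windows of the locus and 8.77% of those of the series. Of the 12 intermediate windows of the locus 4 were over 10 points apart (33.3%), against 19.04% of the intermediate windows of the series. At or below 25% lay 39.7% of the windows of the locus in each of the 4 libraries.

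**Figure D5:**
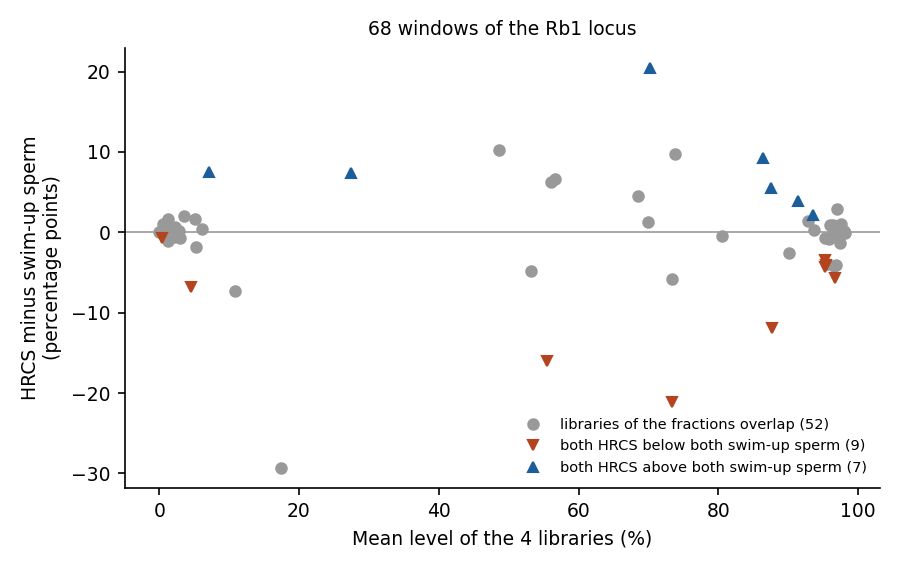
Difference between the fractions (HRCS minus swim-up sperm, percentage points) against the mean level of the 4 libraries (%) for the 68 windows of the locus. Triangles mark windows in which the libraries of the fractions do not overlap, 9 with HRCS lower and 7 with HRCS higher, and the point at the bottom is the window that rests on 1 swim-up library.

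The 3 largest rises and the 3 largest falls among windows without overlap are given as values, since none passed the adjusted test. The largest rise (chr14:73523801-73524000) was at 54.2% and 65.8% in swim-up sperm, against 76.6% and 84.3% in HRCS, a difference of 20.5 points on 53 to 64 calls. The largest fall (chr14:73506401-73506600) was at 73.9% and 93.9% in swim-up sperm, against 61.9% and 63.8% in HRCS, a difference of -21.1 points on 24 to 50 calls. Both lie to the left of Rcbtb2, and each window has 3 sites.

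Beyond the Itm2b start, neighbouring windows moved in opposite directions. The window chr14:73788401-73788600 was at 93.3% and 93.9% in swim-up sperm, against 84.3% and 79.1% in HRCS, a difference of -11.9 points. The next one (chr14:73788601-73788800) was at 79.0% and 84.7% in swim-up sperm, against 91.3% and 90.9% in HRCS, a difference of 9.20 points (edgeR's quasi-likelihood test, unadjusted p = 0.0342, adjusted p = 1). Over the 7 sites of both, the difference was 0.150 points.

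The other rise (chr14:73522801-73523000) was from 4.17% and 2.56% to 14.9% and 6.93%, by 7.53 points. The largest difference of all windows (chr14:73518801-73519000, 3 sites) was -29.3 points with overlapping libraries. Swim-up replicate 2 was at 60% there on 15 calls, swim-up replicate 1 at 4.17%, and the HRCS libraries at 0% and 5.56% (edgeR's quasi-likelihood test, unadjusted p = 0.00676, adjusted p = 1). Only 1 library was high.

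Some sites outside dense stretches were low as well. Of the 27 windows at or below 25%, 20 touched a dense stretch and 7 did not. A group of 12 sites at the left end of the locus (chr14:73502186-73502601) was at 5.09% and 2.64% in swim-up sperm, against 3.24% and 5.14% in HRCS, which overlapped. Outside dense stretches, 6 members had no methylated read in any library, and 4 of them (positions 73543672, 73543716, 73543868 and 73785376) lay just beyond the dense stretch at the Rcbtb2 or the Itm2b start. The first of them (position 73502601) was covered by 9 to 21 reads per library.

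Grouped by gaps of more than 500 bp, the members formed 35 groups, of which 25 were above 75%, 7 were at or below 25% and 3 lay between. Of these 3, the group around the intermediate stretch is described above. The next was a group of 21 sites left of Rcbtb2 (chr14:73522495-73524111), at 47.3% and 64.5% in swim-up sperm, against 59.3% and 64.3% in HRCS, which overlapped. The last held 4 sites beyond the Itm2b start (chr14:73821337-73821586), at 76.7% and 73.4% in swim-up sperm, against 58.3% and 83.9% in HRCS, where replicates of HRCS lay far apart.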

How the data were processed

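TGBS libraries were made by the authors with SureSelect capture and post-bisulfite adapter tagging and read from 1 end. Mapping to mm9 was done by the authors with Bmap. The deposited tables give, per CG and strand, raw read counts (methylated, and total) that were not normalized. Columns are unnamed, and the smaller of the pair was read as the methylated count. Removal of duplicates is not given in the sources used here. A read is counted at each CG site it spans, so calls are not independent molecules.

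Strands were merged, and sites were kept where every library had 5 reads or more. Library totals were 71379227 to 89403347 calls. The level of a region is the unweighted average over its sites, compared between fractions by a two-sided exact permutation test over libraries. Windows of 200 bp with at least 3 sites were tested in edgeR 4.0.16 (R 4.3.3) on methylated and unmethylated calls summed per window. The fit had terms for library, methylation and methylation in HRCS, with 1 dispersion without trend. Alternatives were limma 3.58.1 and Fisher's exact test, also on summed calls. Window levels and differences are unweighted averages over sites unless pooled calls are named, so they weigh sites differently from the tests. Tables were read in Python 3.11.15 with numpy 2.4.6 and pandas 2.3.3. The edgeR fit was tested on simulated data. Gene start stretches are the dense stretches nearest to the approximate starts, within 5 kb. Named were the 3 largest rises and falls among windows without overlap, the edge windows, the highest site of each start and the lowest site outside dense stretches. Other values were chosen after they were seen. The members, gene positions and lists were chosen with earlier results of these data known. Exons and introns are not stated, since the annotation used here is of another build. H3 data were not analysed here.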

Additional observations from a re-analysis of the deposited data

How the results depend on the processing

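Differences are HRCS minus swim-up sperm, in points, and all permutation tests are limited to p = 0.333 or above. Under a minimum of 1 read, the difference turned to -0.0486 at the Rcbtb2 start and to -0.924 outside dense stretches. Under a minimum of 20 reads, it turned to 0.183 at the Rb1 start and to 0.617 over the locus, where 22 of 112 and 119 of 557 sites were left. Levels from pooled calls gave -0.0586 at the Rcbtb2 start, -1.47 outside dense stretches and -1.73 over the locus. Outside dense stretches the value was also -0.145 on the minus strand, -0.406 with dense stretches set at 8 sites and -0.0865 at 15, and it was 0.554 and 1.95 at minimums of 10 and 20 reads. The cause of these turns was not tested. The share of windows at or below 25% differed by 1.02 and 1.22 points in windows of 500 and 1000 bp and by -0.397 with at least 1 site per window, against 0 otherwise. The count of called windows was 0 in 16 of 17 alternatives, while Fisher's exact test, run on pooled calls, gave 1 (2397 of 316993 windows of the series, 0.756%).

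Leaving out 1 library at a time gave ranges of -0.00935 to 0.0258 (Rcbtb2 start), -1.29 to 0.640 (Rb1 start), -0.261 to 0.868 (Itm2b start), -1.29 to 0.324 (Rb1 start against the others), -0.625 to -0.361 (locus) and -0.525 to 0.715 (outside dense stretches). The intermediate stretch, added after its values were seen, was lower in HRCS in the 8 alternatives that changed its value, between -14.4 and -7.10, and 4 others left the value as it was. Replicate numbers did not pair the libraries (correlation of deviations -0.00176 over 316993 windows and 0.206 over the 68 of the locus, from only 2 pairs), and with a replicate block the count of called windows was 0, the mean differences were by construction those above (locus -0.493, smallest possible p = 0.5), and no call changed. At 5 reads, 1 read moves a site by 20 points, and the Rb1 start had the fewest reads per site of the 3 starts.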
